A study of Caenorhabditis elegans with 4 samples.

Results

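The regions described here are the MEP-1 peaks on the X chromosome of Caenorhabditis elegans embryos. They were taken as all entries of the combined peak list that lie on X, whatever their width, and number 1979 of the 11448 peaks in the list. The other 9469 peaks lie on the 5 autosomes. A chromatin immunoprecipitation (ChIP) experiment, in which DNA crosslinked to a protein is recovered with an antibody and sequenced, gave the list. It rests on 2 ChIP libraries and 2 libraries of input DNA, all from embryos of hermaphrodites of strain OP70 grown at 20 °C and crosslinked with 2% formaldehyde. The strain carries the unc119 allele ed3 and the transgene wgIs70, which was introduced by bombardment and holds mep-1 with TY1, EGFP and FLAG tags together with unc119. ChIP and input libraries share this genotype, and the labels list no change of the worm's own mep-1 gene. The antibody was an affinity-purified goat polyclonal antibody against GFP. The list therefore reports the tagged protein in whole embryos, in which cell types cannot be told apart.

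MEP-1, a protein with zinc fingers, works in a repressive complex with the chromatin remodeller LET-418, a worm form of Mi-2, and with HDA-1, which removes acetyl groups from histones. Somatic cells of larvae that lack the complex are known to switch on genes of the germ line. The X chromosome of the worm has a particular standing in this context. Genes with roles in the germ line are scarce on it, it is largely silent in the germ line itself, and in the somatic cells of hermaphrodites a condensin-based dosage compensation complex lowers transcription from both copies.

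Each peak has 1 value for the whole series, a q-value, and none for single libraries. The depth of each library is therefore unknown, and the spread between replicates cannot be given. Peaks and stretches of 1 list are not replicates. Differences between X and the autosomes are accordingly set beside the spread between 1 Mb bins and among the 5 autosomes, without a test. Genes and sequences under the peaks are not reported, since a gene annotation or genome of the build of the list, WormBase WS180, was not used here. Read numbers for each peak were back-calculated from the q-values: ChIP reads, and control reads after the peak caller's scaling. All 1979 peaks on X matched 1 pair of whole numbers.

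Peak density varied little along X. The chromosome held 111 ± 13.9 peaks per Mb (SD between 18 bins of 1 Mb), against 115 ± 34.5 on the pooled autosomes (SD, 82 bins). The single autosomes ran from 78.8 per Mb on IV to 149 on III, with X between them. The SD between bins was 12.5% of the mean on X. It was 11.9% on I, 15.2% on II, 17.6% on III, 21.9% on IV and 32.4% on V. X and I thus had the most even densities of the 6 chromosomes, while bins on V differed most.

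**Figure D1:**
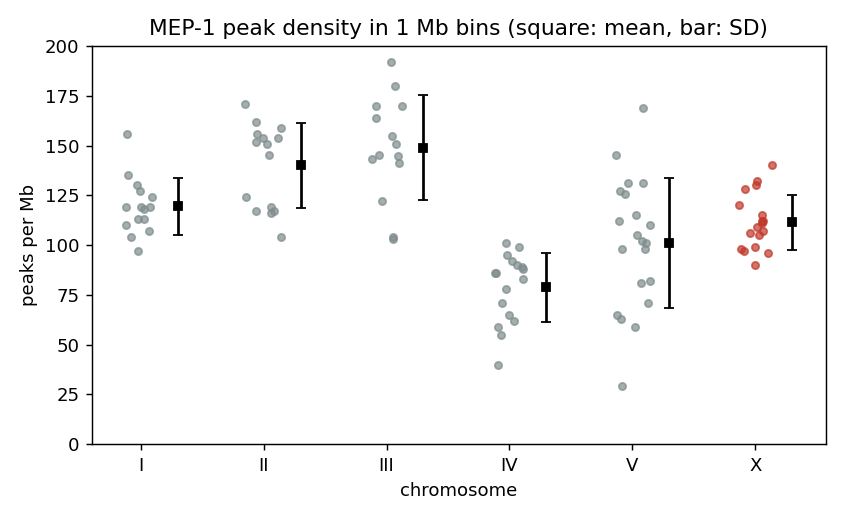
Peaks per Mb (vertical axis) in bins of 1 Mb on each chromosome (horizontal axis), with X in red, autosomes in grey, and the mean and SD between bins in black. The 18 bins of X lie between 90 and 140 peaks per Mb, inside the range of 29 to 192 of the autosomal bins.

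The fullest and the emptiest bin of X lay close to each other, near the left end. The bin from 1 to 1000000 held 90 peaks and the next held 96, the lowest 2 values on X. The bin from 2000001 to 3000000 held 140, the highest. The following bins held 112, 128, 132, 107 and 120 peaks up to 8000000. From 8000001 to 14000000 the numbers were 112, 106, 105, 111, 115 and 130. The bins from 14000001 to 17000000 held 109, 97 and 99 peaks, and the last, shorter bin held 70, or 97.9 per Mb. Low bins thus lay towards both ends, and no bin fell under 90 per Mb.

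Cut into 4 equal stretches from left to right, X held 109, 122, 111 and 105 peaks per Mb. The highest was 1.16 times the lowest. The same quotient was 1.19 on I, 1.33 on II, 1.39 on III, 1.54 on IV and 1.62 on V, so X was the flattest of the 6 chromosomes on this measure. Worm autosomes have gene-rich centres and arms rich in repeats, a contrast known to be weaker on X. The inner 2 stretches of X exceeded the outer 2 by 9.14 peaks per Mb, against 37.96 on V, 37.9 on III, 34.2 on II, 18.2 on I and 7.22 on IV.

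Covered length and peak strength varied along X in their own way. Peaks covered 2.62% of the first bin, 4.34% of the third and 4.18% of the bin from 11000001 to 12000000, which had 111 peaks. The median width per bin lay between 205.5 bp in the last bin and 303 bp in the bin from 11000001. The median −log10 q was highest, at 5.96, in the bin from 14000001 to 15000000, which also had the highest median ratio of ChIP to scaled control, 3.52. It was lowest, at 3.27, in the last bin. The lowest median ratio, 2.77, belonged to the bin from 7000001 to 8000000, which held 120 peaks. Neither the fullest nor the emptiest bin was thus the strongest.

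**Figure D2:**
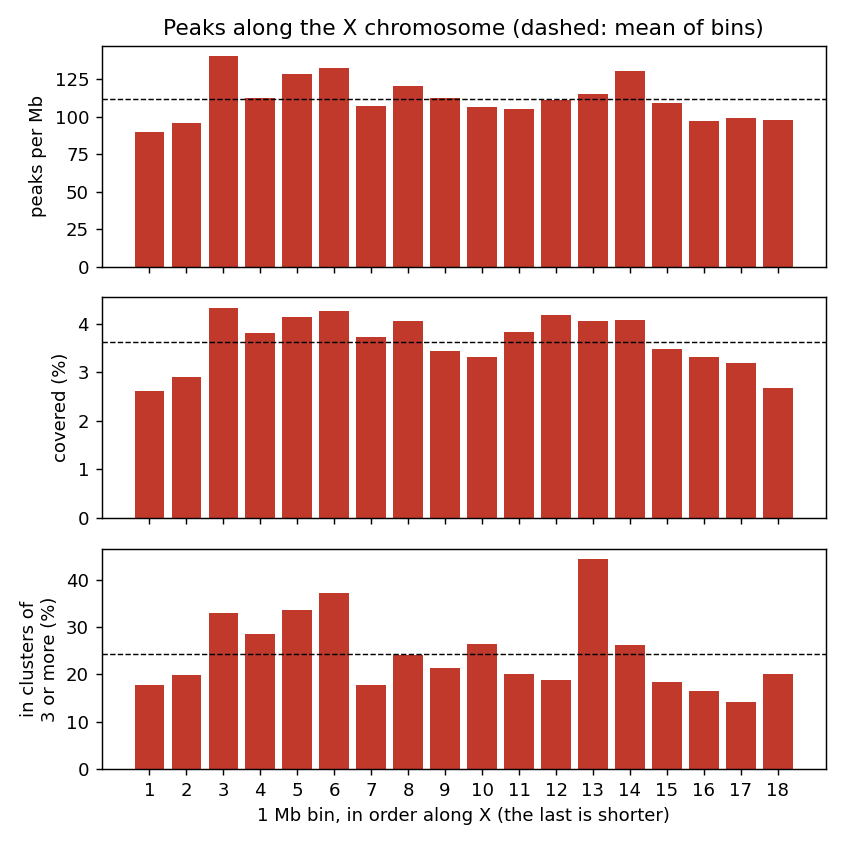
Peaks per Mb, percent of bases covered by peaks and percent of peaks in clusters of 3 or more (vertical axes) in the 18 bins of X in order (horizontal axis), with the mean of the bins as a dashed line. Density stays between 90 and 140 per Mb, whereas the share of clustered peaks ranges from 14.1% to 44.3%.

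Peaks on X were wider than those on most autosomes. The median width was 268 bp on X (quartiles 162 and 421.5 bp) and 229 bp on the pooled autosomes (quartiles 119 and 365 bp). Among the single autosomes the median was 291 bp on IV, 260 bp on I, 204 bp on V and 200 bp on both II and III. X therefore lay below IV and near I. The median widths of its bins had a mean of 269 ± 23.7 bp (SD, 18 bins), and those of the autosomal bins 234 ± 46.9 bp (SD, 82 bins), so the spreads overlap.

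Wide peaks were more frequent on X than on the pooled autosomes. X held 346 peaks of 500 bp or more, which is 17.5% of its peaks (95% exact binomial interval 15.8 to 19.2%), against 12.1% on the autosomes (11.5 to 12.8%). The share on IV, 16.3%, lay inside the interval of X. Per Mb these were 19.5 on X, and from 11.9 on V to 16.04 on III among the autosomes. X had the highest density of the 6 chromosomes in each width class from 400 bp up. In the class from 500 to under 750 bp it held 12.9 per Mb, against 7.79 to 10.9 on the autosomes. In that of 1000 bp or more it held 2.77 per Mb, against 1.67 to 2.39. Peaks of 500 bp or more made up 40.7% of the covered length on X, 33.5% on the pooled autosomes and 37.9% on IV. In the better 50% of the list by q, 36.3% of X peaks and 23.3% of autosomal peaks were 500 bp or wider. A cut by q favours wide peaks, and it does not weigh equally on all chromosomes. From 300 to under 400 bp the median −log10 q was 6.60 on X, 9.54 on the pooled autosomes and 5.46 on IV. The contrast under this cut is therefore no separate support. Peaks covered 3.65% of X and 3.2% of the pooled autosomes, from 2.67% on IV and V to 3.85% on III.

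Narrow peaks were fewer. Widths under 50 bp were found in 7.83% of X peaks (155 peaks, 95% exact binomial interval 6.69 to 9.1%) and in 13.1% of autosomal peaks (12.4 to 13.8%). The single autosomes ran from 7.44% on IV to 15.9% on II. X and IV thus shared a low fraction of such peaks. The narrowest peaks of X had a width of 1 bp. Among them were those at 7467929, 16339421 and 6644983, with 21 to 23 ChIP reads each. The intervals, here and below for reads, cover counting error only. Neighbouring peaks are not independent, and reads without molecular identifiers are not independent molecules.

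**Figure D3:**
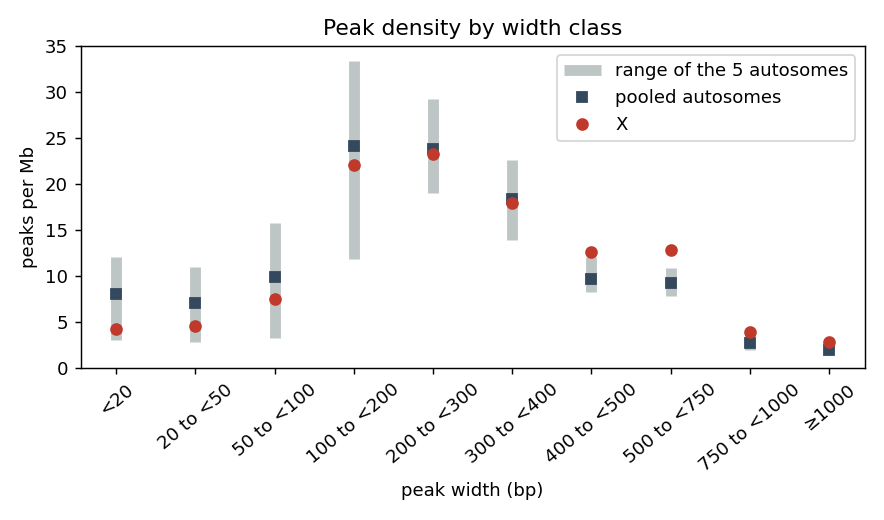
Peaks per Mb (vertical axis) in classes of peak width (horizontal axis, bp) on X (red), on the pooled autosomes (dark squares) and over the range of the 5 autosomes (grey bars). X lies above the whole autosomal range in each class from 400 bp up, for instance at 12.9 per Mb from 500 to under 750 bp.

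X had 49 peaks over 1000 bp, which is 23.6% of the 208 such peaks in the list (95% exact binomial interval 18 to 29.9%), while it had 17.3% of all peaks and 17.7% of the length. As a share of the peaks of a chromosome they were 2.48% on X and 2.55% on IV, against 1.31% to 1.66% on the other autosomes. These broad peaks lay close to other peaks. Another midpoint was within 2000 bp for 71.4% of those of 1000 bp or more on X, as for 71.4% on II and 69.7% on III, with 62.3% on the pooled autosomes. Among all peaks on X it was 48.1%. They were most frequent in the third of the 4 stretches, which held 20 of them, against 10, 12 and 7 in the others. The bins from 3000001, 10000001 and 11000001 held 6 each.

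The widest peak of X ran from 6741638 to 6744347 (2710 bp) and held 486 ChIP reads and 142 scaled control reads (95% exact Poisson interval of the ChIP reads 444 to 531). The ratio, 3.42, was close to the median for its width class on X, 3.49. The next were 16929299 to 16931847 (2549 bp, ratio 7.25), 13143111 to 13145648 (2538 bp, ratio 5.26), 4960259 to 4962703 (2445 bp, ratio 4.57) and 12508957 to 12510965 (2009 bp, ratio 3.38). Of these 5 peaks, 4 belonged to clusters of 3 to 5 peaks. That from 16929299 was in none, with its nearest midpoint 2314.5 bp away. A peak of its width can hardly be linked by midpoints, and the peak to its left began just after 16928081.

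Enrichment over the control was lower on X than on the autosomes. Among all peaks, the median ratio of ChIP to scaled control reads was 3.07 on X (quartiles 2.5 and 4) and 3.75 on the autosomes (quartiles 2.92 and 5.25). The single autosomes ran from 3.04 on IV to 4.38 on III. The bin medians had a mean of 3.1 ± 0.20 on X (SD, 18 bins) and 3.74 ± 0.57 on the autosomes (SD, 82 bins). X and IV were thus the chromosomes with the lowest ratios.

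The lower ratio went with more control reads. The median peak on X held 55 ChIP reads and 19 scaled control reads, and that on the autosomes 49 and 13. Since reads grow with width, peaks of like width were also compared. From 300 to under 400 bp, X had medians of 75 ChIP and 23 control reads, and the autosomes 79 and 18. From 500 to under 750 bp the medians were 122 and 35 on X, against 124 and 28. ChIP medians on X lay inside the range of the 5 autosomes in both classes. The control on X lay above that on II, III, V and I and below that on IV. The part of the scaled control in the lower ratio and in the widths was not tested.

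**Figure D4:**
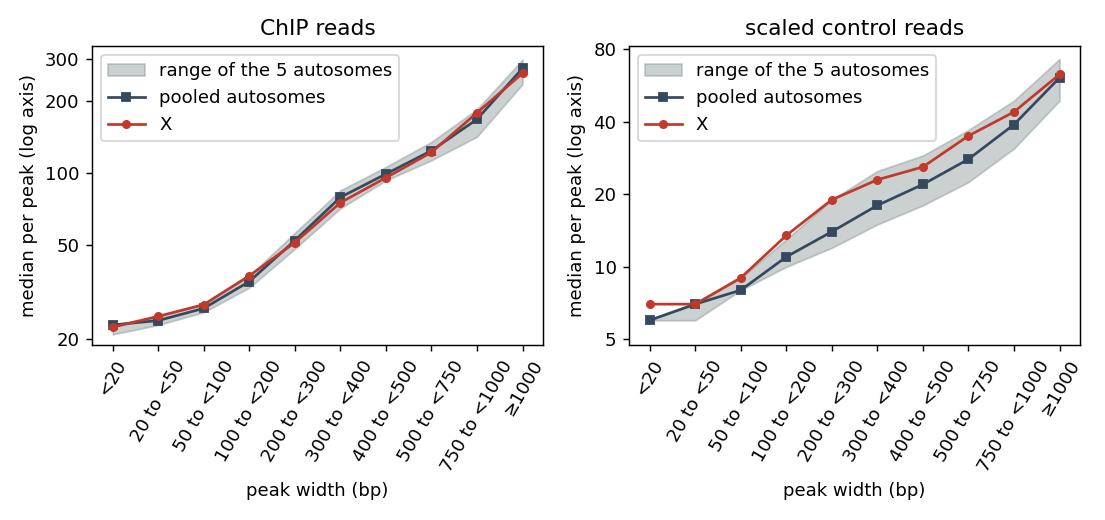
Median ChIP reads (left) and median scaled control reads (right) per peak (vertical log axes) by peak width (horizontal axis, bp) on X (red), the pooled autosomes (dark) and over the range of the 5 autosomes (grey). ChIP reads on X follow the autosomes, with 122 against 124 from 500 to under 750 bp, while the control is higher, with 35 against 28.

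In the 5 width classes under 300 bp the median ratio on X was the lowest of the 6 chromosomes. From 200 to under 300 bp it was 2.67, against 2.88 on IV and 4.67 on III. From 300 to under 1000 bp IV was lower than X. In peaks of 1000 bp or more X was again lowest, at 3.49 against 3.88 on IV and 6.37 on III. The highest ratios were also modest: the highest on X was 17.1, against 22.2 to 30.7 on the single autosomes. Of the 100 highest ratios in the list among peaks with 100 or more ChIP reads, X held 5 (95% exact binomial interval 1.64 to 11.3%). It held 17.3% of all peaks. Its share of the peaks with 100 or more ChIP reads, and the counts for IV and the other autosomes, are not given here. Whether this low count is particular to X was therefore not tested. Scaled control reads differed between chromosomes at like width, and the caller's scaling was not recovered. Ratios on different chromosomes therefore describe the listed values only.

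When the control of each chromosome was multiplied up to that of IV and the list was cut again at a q of 0.01, X kept 85.1% of its peaks and the autosomes 71.1%. The density was then 94.7 ± 14.8 per Mb on X (SD, 18 bins) and 81.7 ± 22.8 on the autosomes (SD, 82 bins), with single autosomes from 59.5 to 104. The median widths came closer, at 310 bp on X and 299 bp on the autosomes. The share of peaks of 500 bp or more was still higher on X, 20.5% against 16.8%. This setting can only remove peaks, and it removes fewer where the control was already high.

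By q, X had both strong and weak peaks in good number. The median −log10 q was 4.09 on X and 4.58 on the autosomes, where single chromosomes ran from 3.82 on V to 5.38 on III. X held 20 of the 100 lowest q-values (95% exact binomial interval 12.7 to 29.2%) and 167 of the 1000 lowest. In the better 50% of the list X had 917 peaks, or 46.3% of its own, against 50.8% of the autosomal peaks. X thus had 20% of the 100 lowest q-values, 16.7% of the 1000 lowest and 16.0% of the better 50%, beside 17.3% of all peaks. The interval for the 100 lowest holds 17.3%, as does that for the 1000 lowest (14.4 to 19.2%). That for the better 50% (15.1 to 17.0%) lies below it. Whether the share of the very lowest q-values differs from that of all peaks cannot be told from 100 peaks.

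Width and q moved together across the peaks of X. Over 1979 peaks, width and −log10 q had a Spearman's rho of 0.82, given as a description because both depend on the number of reads in a peak. The top 197 peaks by q were 591 bp wide at the median, with 190 ChIP reads and a ratio of 6.04. They held 28.4% of all ChIP reads in X peaks and 22.5% of the covered bases. The 198 with the highest q were 108.5 bp wide, with 31 ChIP reads and a ratio of 2.36.

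The 10 strongest peaks of X by q stood in different surroundings. The strongest, from 11605064 to 11607023, held 703 ChIP reads, with a 95% exact Poisson interval of 652 to 757, and 96 control reads. It had its nearest neighbour at 1371 bp, in a cluster of 3. The next, from 16929299, stood 2314.5 bp from any other midpoint. The peak from 10568124 to 10569202 was 1757 bp from its nearest neighbour, and the 2 formed a pair. The peak from 16611297 to 16613079 held 561 ChIP reads, at a ratio of 8.63, in a pair of its own. By distances between midpoints, 2 of these 4 thus lay in pairs, 1 in a cluster and 1, which was 2549 bp wide, in neither.

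Of the other 6, 4 combined a high ratio with a width of 545 to 953 bp, above the upper quartile of X peaks, 421.5 bp. The peak from 11093832 to 11094471 was 640 bp wide with 397 ChIP against 29 control reads, a ratio of 13.7. The peak from 13700550 to 13701094 was 545 bp wide, with 305 against 19 reads and a ratio of 16.1. The peak from 14525459 to 14526313 (855 bp) had a ratio of 12.6 and 12274 bp to its nearest neighbour. That from 5840553 to 5841505 (953 bp) had a ratio of 8.92. Those from 13143111 to 13145648 and from 11030841 to 11032214 (1374 bp) were wider, with ratios of 5.26 and 7.76, and lay in clusters of 3 and 5 peaks. Among these 6, low q therefore came both from wider peaks with lower ratios and from narrower ones with higher ratios. All 6 ratios lay above the upper quartile of X peaks, which was 4.

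The 5 highest ratios among X peaks with at least 100 ChIP reads included 3 of these 10. The other 2 were narrower and stood alone. The peak from 806520 to 806913 (394 bp) held 205 ChIP reads, with a 95% exact Poisson interval of 178 to 235, and 12 control reads, with 18481 bp to its nearest neighbour. The peak from 2242785 to 2243200 (416 bp) held 264 against 16, with 5311 bp to its nearest neighbour. At the low end, the peak from 293276 to 293626, which borders one of the longest gaps of X, held 125 against 78 reads, a ratio of 1.60.

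Neighbouring peaks on X lay slightly farther apart than on the pooled autosomes. The median distance between successive midpoints was 4446 bp on X (quartiles 1650 and 11858 bp) and 3856 bp on the autosomes (quartiles 1464 and 10452 bp). Single autosomes ran from 3172 bp on II to 5644.5 bp on IV. The shortest distance between midpoints on X was 332.5 bp, and no peak began closer than 201 bases after the end of the one before it. On the autosomes this limit was 200 bases. A stretch of under 200 bases between peaks therefore does not occur anywhere in the list.

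Close pairs were less frequent on X than on most autosomes. Another midpoint lay within 2000 bp for 48.1% of X peaks (952 peaks, 95% exact binomial interval 45.9 to 50.3%) and for 52.4% of autosomal peaks (51.4 to 53.4%). It was 43.5% on IV, 49.6% on I, 53.0% on V, 54.6% on III and 57.8% on II, so X lay between IV and I. Within 1000 bp the shares were 22.4% on X and 27.1% on the autosomes. Within 5000 bp they were 76.3% and 78.7%. With the control at the level of IV the shares within 2000 bp were 43.2% on X and 41.5% on the autosomes. That setting only removes peaks, and it kept 85.1% on X and 71.1% on the autosomes. Removing more peaks by itself lowers the share with a near neighbour, so the turned order does not compare spacing. Along X the share within 2000 bp ran from 34.4% in the second bin to 60.2% in the bin from 4000001 to 5000000.

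**Figure D5:**
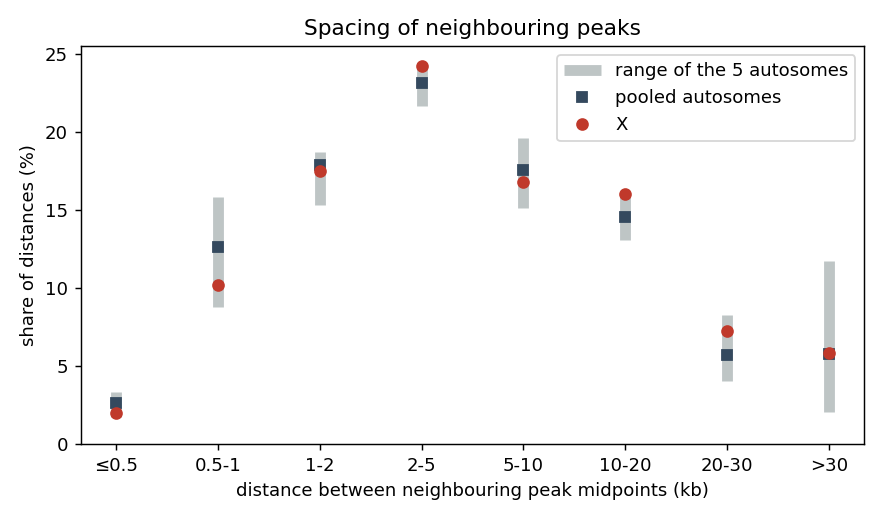
Share of the distances between neighbouring peak midpoints (vertical axis, percent) by distance class (horizontal axis, kb) on X (red), on the pooled autosomes (dark squares) and over the range of the 5 autosomes (grey bars). X lies inside the autosomal range in each class, with 10.2% of its distances from 0.5 to 1 kb against 12.7% on the pooled autosomes.

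The variation in spacing on X was lower than on the pooled autosomes. The SD of the distances was 1.30 times their mean on X and 1.56 times on the autosomes, where it ran from 1.24 on III to 1.78 on V. In bins of 100 kb, the variance of the peak number was 1.85 times its mean on X, the lowest of the 6 chromosomes, next to 1.90 on both I and III and up to 3.72 on V. In bins of 10 kb the quotient was 1.52 on X and 1.66 on the pooled autosomes, with I (1.46) and III (1.40) below X. In bins of 1 Mb it was 1.72 on X and 1.70 on I. Numbers in neighbouring bins of 100 kb hardly moved together on X (Pearson's r = 0.070 over 176 pairs, as a description).

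The 177 full bins of 100 kb held between 1 and 21 peaks on X, with a median of 11. Bins with 20 or more peaks made up 2.82% of them on X (5 bins) and 10.6% on the autosomes. On IV, with 1.72%, they were fewer than on X. Bins with under 5 made up 6.21% on X (11 bins) and 12.5% on the autosomes, of which I, II and III had lower shares than X (4.67%, 5.26% and 2.19%) and IV and V higher ones (22.4% and 22.0%). No bin of X was empty, as on I to IV.

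The 5 fullest bins fell into 4 places. Those from 4800001 to 4900000 and from 12100001 to 12200000 held 21 peaks each. Those from 4200001 to 4300000, from 4900001 to 5000000 and from 5800001 to 5900000 held 20 each. The pair of fullest bins differed in kind: peaks in the bin from 4800001 had a median width of 226 bp and covered 4.59% of it, and those in the bin from 12100001 had a median of 401 bp and covered 9.94%. Bins with 1 peak began at 200001, 1700001 and 15900001, and bins with 2 peaks at 4000001, 6400001 and 12700001.

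Clusters were defined as runs of peaks whose successive midpoints lay at most 2000 bp apart. On X, 1027 peaks (51.9%) stood alone, 456 (23.0%) formed pairs, and 496 (25.1%) fell into 136 clusters of 3 or more. On the autosomes 28.4% of the peaks fell into such clusters, from 19.1% on IV to 34.3% on II. Of the clusters on X, 90 had 3 peaks, 23 had 4, 11 had 5, 10 had 6, 1 had 7 and 1 had 12. The 23 clusters of 5 or more held 6.77% of X peaks (134 peaks, 95% exact binomial interval 5.7 to 7.97%), against 9.79% on the autosomes (9.2 to 10.4%). They spanned 3.87 to 13.6 kb, with a median of 5.52 kb.

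Peaks in the larger clusters of X were wider than its single peaks. The median width was 339 bp in clusters of 5 or more and 269 bp in single peaks, and 28.4% against 15.5% were 500 bp or wider. On the pooled autosomes the medians were 243 and 229 bp, and the shares 17.3% and 10.2%. The median was higher in clusters of 5 or more on each single autosome. On V it was 265 against 194 bp, with shares of 17.7% and 9.08%, a contrast much like that on X. In clusters of 3 on X the median was 254.5 bp, below that of single peaks. Wide peaks use up more of the linking distance between midpoints, which counts against them in this definition. The ratio of ChIP to control did not follow the width: its median was 3.08 in clusters of 5 or more, 2.94 in those of 3 or more and 3.17 in single peaks of X.

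The largest cluster on X held 12 peaks from 12171235 to 12184832, over 13.6 kb, of which peaks covered 50.7%. Its first peak was the strongest, 1712 bp wide with 405 ChIP against 91 control reads (q = 1.79e-46). The 11 that followed were 98 to 712 bp wide, with ratios between 2 and 5, at distances between midpoints of 736 to 1714 bp. Within the cluster, the wide and strong peak lay at the left edge, with a row of weaker ones to its right. That edge depends on linking by midpoints. Another cluster of 3 peaks, up to 580 bp wide, ran from 12167620 to 12169769, just to the left. A further cluster of 3 ran from 12187580 to 12189656, to the right. The largest cluster lay in the bin from 12000001 to 13000000, whose density of 115 per Mb was near the mean. In this bin 44.3% of the peaks belonged to clusters of 3 or more, the highest share on X.

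The next cluster held 7 peaks from 15273740 to 15281493. Its second peak, 1169 bp wide, had 292 ChIP against 45 control reads and a ratio of 6.49, and the third had 156 against 35. The other 5 had ratios from 2.11 to 4.62. These 2 peaks held 448 of the 870 ChIP reads of the cluster.

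The 3 most compact of the 10 clusters of 6 peaks differed in strength. That from 10593539 to 10597955, over 4.42 kb, held 537 ChIP reads and had 55.8% of its span covered, with its lowest q, 3.34e-18, at its right end. It lay 24.3 kb to the right of the strong peak from 10568124. That from 1995901 to 2000726 held 233 ChIP reads, and its narrowest peak was 7 bp wide. That from 6686766 to 6691931 held 274, and none of its q-values was below 1.35e-05. The last 2 were each followed by over 30 kb without a peak, 34.7 and 37.3 kb between midpoints.

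Of the 4 stretches of X, the last had the lowest share of clustered peaks. By bins of 1 Mb the share was lowest, at 14.1%, from 16000001 to 17000000, and it was 20% in the last bin. In the first 3 of the 4 stretches of X, 26.5%, 27.1% and 27.7% of the peaks belonged to clusters of 3 or more, and in the last 18.5%. The last stretch held 17 peaks in clusters of 5 or more, against 39, 49 and 29 in the others. Its median −log10 q of 4.5 and median ratio of 3.32 were the highest of the 4. The median scaled control was 18 reads in this stretch, against 17, 21 and 20 in the others, and its part in these values was not tested.

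The widths of neighbouring peaks hardly moved together. Spearman's rho between the widths of successive peaks on X was 0.034 over 1978 pairs, and 0.025 over the 588 pairs within 2000 bp. For −log10 q the value was 0.035. These correlations are descriptions and close to 0, as they were on the pooled autosomes (0.042 for width over 9464 pairs).

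Gaps of 30 kb or more between midpoints numbered 116 on X, or 6.55 per Mb, against 6.61 per Mb on the autosomes. They took up 28.8% of the length of X and 33.1% of that of the autosomes, with a range from 13.5% on III to 48.3% on IV. Gaps of 50 kb or more numbered 25 on X and took up 9.53% of its length, against 16.04% on the autosomes. The single autosomes had 5.02% on III, 8.75% on I, 9.21% on II, 24.8% on IV and 26.2% on V, so the pooled value rests on IV and V, and X lay next to I and II.

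The longest gap of X ran from 12730289 to 12842942, 113 kb without a peak, in the same 1 Mb bin as the largest cluster. It was shorter than the longest on IV (179 kb between midpoints) and V (223 kb) and close to that on II (117 kb), where X had 113 kb. The next were 1688774 to 1791278 (103 kb), 197651 to 293275 (95.6 kb), 4016544 to 4111071 (94.5 kb) and 15866441 to 15956577 (90.1 kb). Of the 10 peaks that border these 5 gaps, 4 had a q above 0.001 and 4 were under 150 bp wide. Such peaks were common on X: over all its peaks the lower quartile of −log10 q was 2.71, and that of width 162 bp. These 10 peaks are too few to tell the borders from X peaks in general. The gap from 15866441 was bordered on its left by a peak with a q of 8.54e-20. How well reads map in these gaps was not examined.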

How the data were processed

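Per the file headers, the authors called the regions with PeakSeq on WormBase WS180 and deposited 1 combined list with a q-value for each peak. Not given in the sources used here are the aligner, the filters, the caller's version and how replicates were combined. Positions count from 1. X was taken from base 1 to its last peak, and peaks were placed by the midpoint of start and end. Partial bins under 0.5 of the bin size were left out.

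Times line number and over 15494, taken as the number of tested regions, the q-values gave p-values. For 11441 of 11448 peaks the natural log of p was within 1e-10 of 1 binomial tail of whole reads (probability 0.5). If the tail leaves out the ChIP count, which was taken as included, ChIP reads are 1 lower and control reads 1 higher throughout. This step was tested on simulated data built with the same rule. Such data check the arithmetic only and cannot show that the caller computed its q-values in this way. Python 3.11.15, scipy 1.17.1 and matplotlib 3.10.9 were used.

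Named positions were the 10 lowest q, the 5 widest, the 5 highest ratios with at least 100 ChIP reads, the extreme bins, and the 5 largest clusters and longest gaps. The lowest ratio, the narrowest peaks and the bins with most broad peaks were added after their values were seen. The members and measures were chosen with earlier results of these data known. Alternatives were other q and width limits, bin sizes, distances, autosomes left out and an equal control.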

Additional observations from a re-analysis of the deposited data

How the results depend on the processing

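Of 73 values recomputed for 13 results, 40 stayed within the limit set for their result, and 33 moved. The limit was the spread between bins, the 95% exact binomial interval or, for counts, 1.5 times. For the ratio of median widths it was the SD among the single autosomes, 0.199, which exceeded the distance of the reported ratio, 1.17, from equality. The limit for the density difference, 13.9 per Mb, exceeded the difference itself. Values of the opposite sign (2.65, 7.17, 2.03 and 3.40) thus counted as within it. Staying within these limits therefore says little about the comparisons with the autosomes. The better 50% of the peaks by q gave 51.5 peaks per Mb on X, 2.61% covered, a median width of 424 bp, 24.9% with a neighbour within 2000 bp, 18 clusters of 3 or more with 6.98% of the peaks, 201 gaps of 30 kb or more, a median gap of 11271.5 bp, a median ratio of 3.89, a median −log10 q of 9.98, and 0% of peaks under 50 bp. Fewer peaks leave longer gaps by construction. Peaks of at least 200 bp gave 73.0 per Mb, a median width of 372 bp, 33.9% with such a neighbour, 52 clusters with 14.4% of the peaks, a median −log10 q of 6.85 and a median gap of 7207.75 bp. With peaks of at least 50 bp, 22.1% were in clusters. A distance of 1000 bp gave 22.4% with a neighbour and 35 clusters with 5.51% of the peaks, and 5000 bp gave 76.3% and 255 with 57.5%. Distances between edges gave 53.8% with a neighbour and 29.8% in clusters. Gaps of 20 kb or more numbered 260 and those of 50 kb or more 25. The equal control gave 94.7 per Mb, 43.2% with a neighbour (41.5% on the autosomes) and 20.6% in clusters. It removed a larger share of the autosomal peaks, which by itself lowers their share with a neighbour, so the turned order does not compare spacing. X lay 3.57 peaks per Mb below the autosomes as reported (-3.57) and above them with the equal control (13.03), with peaks of at least 50 bp (2.65) or 200 bp (7.17) and without II (2.03) or III (3.40). The median width on X stayed above that of the autosomes in each of the 10 settings run for it, at 1.08 to 1.25 times in 9 of them and 1.04 times with the equal control, a setting chosen for the widths after seeing the data. No paired analysis was possible because single libraries have no values here, which also kept any replicate from being left out.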
